A study of Schizosaccharomyces pombe with 6 samples.

Results

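The genes that put the small modifier SUMO on proteins and take it off again were followed in fission yeast, with the protease gene *ulp1* at the centre. The set holds 10 genes (*pmt3*, *rad31*, *fub2*, *hus5*, *pli1*, *nse2*, *ulp1*, *ulp2*, *slx8* and *rfp1*), taken by their current gene name in the deposited annotation out of 6291 counted genes, of which 5058 are protein-coding. Of these 10 genes, 9 are described there as SUMO machinery. The exception is *fub2* (SPBP4G3.03), which is described as a PI31-type regulator of the proteasome. Its name was formerly also used for *uba2* (SPBC16H5.03c), which is described as a SUMO-activating enzyme. *uba2* is therefore given beside the 10 genes, an addition made after the name was looked up. In the same way *rfp1* (SPAC19A8.10) is also listed as an older name of *brl2* (SPCC970.10c), which is another gene and was not used.

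RNA was sequenced from 6 cultures of 1 *Schizosaccharomyces pombe* strain, *nup211-so*, 3 grown without thiamine and 3 grown with 30 μM (10 μg/ml) thiamine. All 6 cultures are h+ cells that carry *nup211::P81nmt1 ura4+* beside *leu1-32*, *ura4-D18* and the adenine marker *ade6-M210*. In this allele P81nmt, a promoter that thiamine represses, and the marker *ura4+* stand in front of *nup211*, an essential gene for a large coiled-coil protein of the nuclear pore basket. Cells were grown in minimal medium with adenine and leucine. The thiamine cultures were kept for 24 hours, washed, and grown for 24 hours more. These times are recorded here for the thiamine cultures only, so whether the others were matched in time and washing is not known. Neither group holds cells whose *nup211* has its own promoter, so thiamine itself and the repression of *nup211* cannot be told apart.

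SUMO is made as a precursor that a Ulp1-type protease trims, so that the chain ends in 2 glycines. The E1 enzyme, a dimer of Rad31 and Uba2, activates it, the E2 enzyme Hus5 receives it, and the E3 ligases Pli1 and Nse2 help to pass it to lysines of other proteins. Ulp1, which also sits at the nuclear pore, and Ulp2, which trims chains, take SUMO off again, and the ubiquitin ligase Slx8 with its partner Rfp1 marks SUMO-bearing proteins for turnover.

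The site at which the precursor is cut can be read in the last coding exon of *pmt3*, the gene for SUMO. This exon lies on chromosome II from 2507316 to 2507390 on the plus strand (ASM294v3 assembly). It is shown here with the codons of the glycine pair in capitals, which are codons 110 and 111 of 117. The 6 codons that follow are the tail that the protease removes, and the last 3 bases are the stop codon.

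pmt3 last coding exon: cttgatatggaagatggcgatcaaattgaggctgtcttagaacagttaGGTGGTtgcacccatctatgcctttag

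Total counts ranged from 37195197 to 48815139 per library. The 29 ribosomal RNA genes held 41.2% to 49.0% of the counts without thiamine and 24.6% to 46.3% with thiamine, with thiamine replicates 2 and 3 lowest. The TMM factors, which scale the libraries, moved with the groups as well (0.735 to 0.880 without thiamine and 0.998 to 1.41 with thiamine). With the ribosomal RNA genes left out before scaling, *ulp1* and *pli1* had log2 fold changes of 1.35 and 1.42 and *pmt3* and *nse2* of −0.48 and −0.46, and of the 10 genes 5 were again called higher and 2 lower. *nup211* had 477, 590 and 473 counts without thiamine and 644, 551 and 655 with thiamine. Scaled, the groups overlapped, and its log2 fold change was −0.17 (SE 0.11, adjusted p = 0.199), so a fall of the targeted mRNA was not detected with TMM scaling. It was called lower with upper-quartile scaling (−0.47, adjusted p = 0.00686) and stood at 0.40 with library totals (adjusted p = 0.0851), so its direction depends on the scaling. Of the annotated *nup211* span 87.0% was overlapped by other genes. The paper reports a marked loss of Nup211 protein by immunoblot in *nup211-so* cells grown with thiamine, which is protein and not mRNA. The thiamine-repressed gene *nmt1* had 1631, 2061 and 1858 counts without thiamine and 0, 3 and 2 with it, and *ura4* fell by 1.75 on the log2 scale (adjusted p = 1.6e-06). The thiamine labels were thus matched by *nmt1*, and the groups are named below by those labels.

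Of the 10 genes, 5 were called higher with thiamine (*ulp1*, *ulp2*, *pli1*, *slx8*, *fub2*) and 2 lower (*pmt3*, *nse2*), with an adjusted p under 0.05 in edgeR's quasi-likelihood test. Over all 5434 genes tested 34.5% were called higher and 35.3% lower. Of the 5, *fub2* and *slx8* reached the filter on low counts in 0 and 1 of the 3 libraries without thiamine and in all 3 with it, so both were tested only through the group where they are high. The 3 genes that were not called were *hus5*, *rad31* and *rfp1*. In all, 7 of the 10 genes were called, beside 69.8% of all genes. In these 7 genes the values of the 2 groups did not overlap, which held for 75.5% of all genes. With *uba2* in place of *fub2* the counts were 4 higher and 3 lower. The median log2 fold change of the 10 genes was 0.53, beside −0.01 over all genes. It includes *fub2* and *slx8*, which were tested only because their thiamine counts are high, and *fub2* is not SUMO machinery. The median is therefore not read as a shift of the pathway. The genes of the pathway did not move together. The E3 ligase gene *pli1* and the protease gene *ulp1* rose under each scaling. *ulp2* rose with TMM scaling and library totals but not with upper-quartile scaling, and *nse2* and the modifier gene *pmt3* fell with TMM and upper-quartile scaling but not with library totals.

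**Figure D1:**
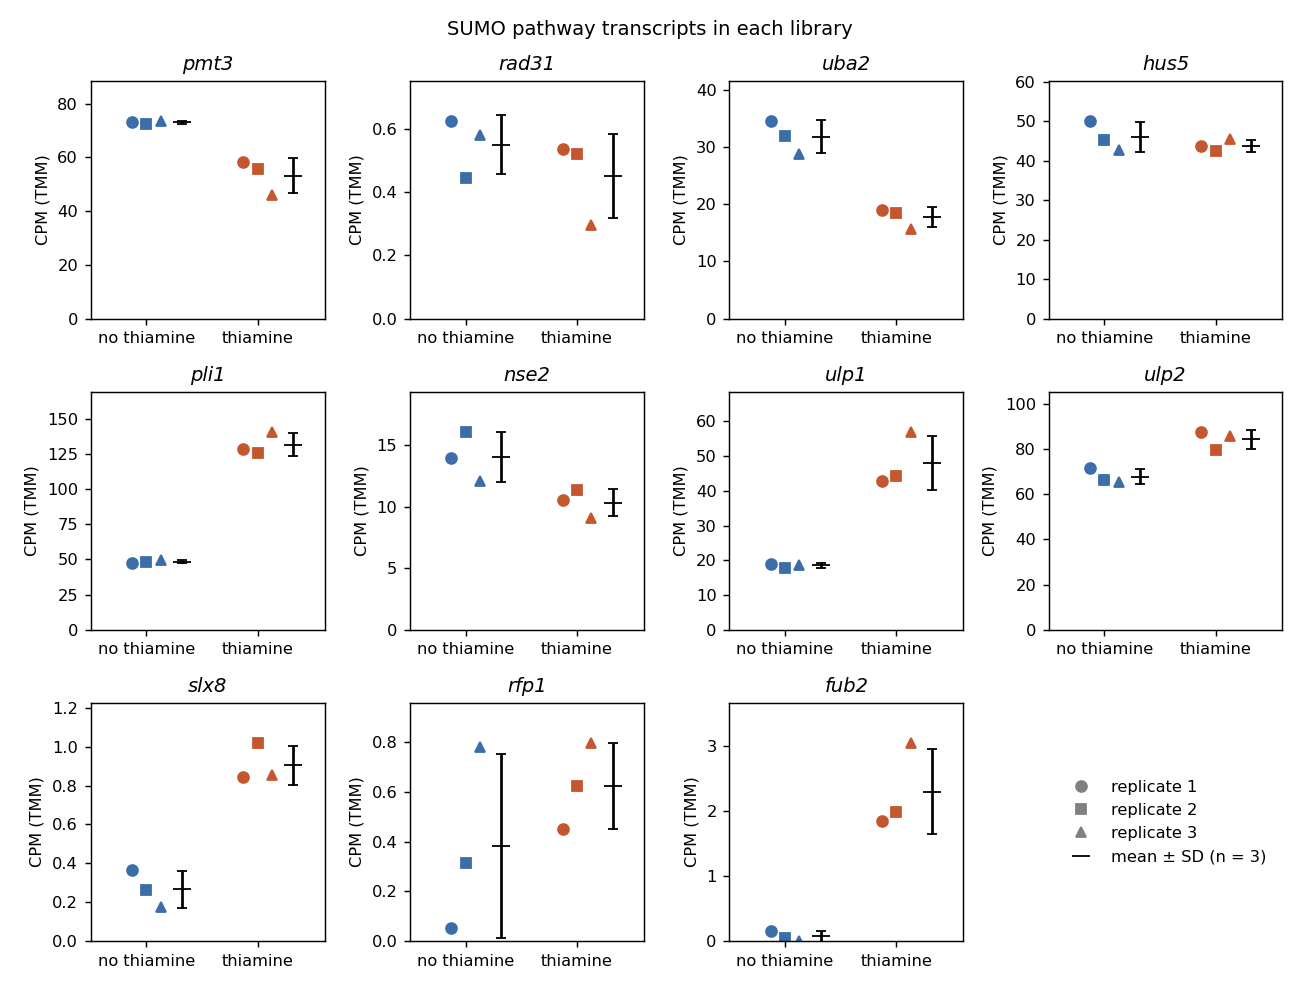
Level (CPM, TMM-scaled) of each gene in the 6 libraries, with circles, squares and triangles for replicates 1, 2 and 3 and the mean ± SD of 3 libraries beside them; each panel has its own axis from 0. The groups stand apart for *pmt3*, *uba2*, *pli1*, *nse2*, *ulp1*, *ulp2*, *slx8* and *fub2*, and overlap for *rad31*, *hus5* and *rfp1*.

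*ulp1* (SPBC19G7.09, chromosome II, 2367079 to 2369193, plus strand) encodes the SUMO protease of the nuclear pore. It was read at 19.1, 17.7 and 18.8 CPM (counts scaled by TMM to libraries of 1000000) without thiamine and at 42.9, 44.2 and 57.0 CPM with thiamine. All 3 thiamine libraries were above all 3 libraries without thiamine, and replicate 3 with thiamine was the highest. The means of 18.5 ± 0.705 and 48.0 ± 7.78 CPM (SD over n = 3 libraries) gave a log2 fold change of 1.37 (SE 0.12, 95% interval 1.10 to 1.65, adjusted p = 1.47e-05), or 2.59-fold. Of all tested genes 89.3% had a lower log2 fold change.

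*ulp2* (SPAC17A5.07c, chromosome I, 1764233 to 1766758, minus strand), the other SUMO protease gene, rose less. It was at 71.5, 66.2 and 65.6 CPM without thiamine and at 87.6, 79.4 and 85.7 CPM with it. The groups did not overlap. Its log2 fold change was 0.31 (SE 0.077, 95% interval 0.14 to 0.49, adjusted p = 0.0059), which fell to 0.02 with upper-quartile scaling (adjusted p = 0.835) and to 0.16 once trends with GC content and gene length were taken out (adjusted p = 0.091).

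The E3 ligase gene *pli1* (SPAC1687.05, chromosome I, 908736 to 911854, plus strand), whose product makes most of the SUMO conjugates of this yeast, was at 47.4, 48.4 and 49.5 CPM without thiamine and at 129, 126 and 141 CPM with it. All 3 thiamine libraries were above all 3 without thiamine. The mean rose from 48.4 ± 1.05 to 132 ± 7.97 CPM, a log2 fold change of 1.44 (SE 0.077, 95% interval 1.27 to 1.62, adjusted p = 1.36e-06), or 2.72-fold. Only a small part of all tested genes rose more, since 90.2% had a lower log2 fold change.

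*nse2* (SPAC16A10.06c, chromosome I, 3089494 to 3090898, minus strand) encodes the other E3 ligase, a subunit of the Smc5-6 complex. It was at 14.0, 16.1 and 12.1 CPM without thiamine and at 10.6, 11.3 and 9.12 CPM with it. The groups did not overlap, by a gap smaller than the SD of either group. Its log2 fold change was −0.44 (SE 0.13, 95% interval −0.75 to −0.14, adjusted p = 0.0163). Without replicate 2 of the libraries without thiamine it was −0.34 and was no longer called (adjusted p = 0.073). Once the length and GC trends were removed it was −0.31 and not called (adjusted p = 0.0582). With the replicate number fitted as a block as well, it was −0.31 and called (adjusted p = 0.0337).

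*pmt3* (SPBC365.06, chromosome II, 2506815 to 2510260, plus strand) encodes SUMO itself. It was at 73.2, 72.6 and 73.7 CPM without thiamine and at 58.3, 55.5 and 46.0 CPM with it. The 3 libraries without thiamine were nearly equal and all above those with thiamine. The mean fell from 73.2 ± 0.562 to 53.3 ± 6.42 CPM, a log2 fold change of −0.46 (SE 0.097, 95% interval −0.68 to −0.24, adjusted p = 0.00266). With the length and GC trends removed it was −0.80 (adjusted p = 0.000116). That trend takes the annotated length of the transcript, which for *pmt3* is far longer than its 354 coding bases. How much of the larger fall rests on this length was not tested.

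*hus5* (SPAC30D11.13, chromosome I, 1094262 to 1095547, minus strand), the only E2 gene of the pathway, was at 50.2, 45.2 and 42.6 CPM without thiamine and at 43.8, 42.4 and 45.4 CPM with it. The groups overlapped. Its log2 fold change was −0.07 (SE 0.085, adjusted p = 0.491), and the 95% interval of −0.26 to 0.13 leaves room for a small change either way.

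*uba2* (chromosome II, 2294913 to 2297241, plus strand), the E1 gene that once bore the name *fub2*, was at 34.6, 31.9 and 28.8 CPM without thiamine and at 18.9, 18.5 and 15.7 CPM with it. The groups did not overlap. The log2 fold change was −0.85 (SE 0.11, 95% interval −1.09 to −0.60, adjusted p = 0.000135), and 18.2% of all tested genes had a lower one. It was called lower with TMM scaling but not with library totals.

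**Figure D2:**
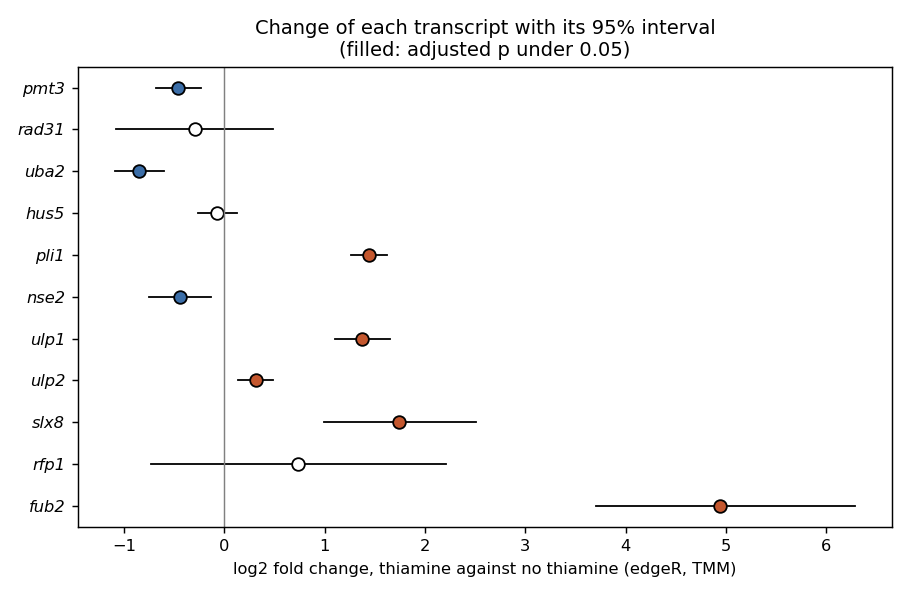
Log2 fold change of each gene, thiamine against no thiamine, with its 95% interval from edgeR (3 libraries a group, TMM scaling). Filled points have an adjusted p under 0.05; *ulp1* at 1.37 and *pli1* at 1.44 stand apart from *ulp2* at 0.31, and the intervals of *rfp1* and *rad31* are wide.

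The 6 best-counted genes had at least 418 counts in every library, whereas *rad31*, *fub2*, *slx8* and *rfp1* had at most 164. These 4 low genes share their coding sequence with another gene on the opposite strand. All coding bases of *rad31*, *slx8* and *rfp1* and 517 of the 726 coding bases of *fub2* lie inside another annotated gene, against 0 coding bases in *ulp1*, *ulp2*, *pmt3*, *pli1*, *nse2*, *hus5* and *uba2*. Over all protein-coding genes the median was 1180 counts per kb of gene and library for the 3582 genes with under 25% of their span overlapped, 313 for the 703 genes between 25% and 75%, and 10.9 for the 773 genes at 75% or more. Whether these genes have few transcripts, or reads that lie in 2 genes were not counted, was not tested. The levels of these 4 genes are therefore read as counts of the deposited table and not as amounts of mRNA.

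*slx8* (SPBC3D6.11c, chromosome II, 1288188 to 1290276, minus strand) had 14, 10 and 6 counts without thiamine and 41, 49 and 46 with it. The groups did not overlap, and the log2 fold change was 1.74 (SE 0.33, 95% interval 0.99 to 2.51, adjusted p = 0.00142). Only 1 of the libraries without thiamine was over the filter, so this gene too was tested through the thiamine libraries. Of its span 91.3% lies over *apn2*, a DNA repair nuclease gene on the other strand, which had 456, 406 and 353 counts without thiamine and 133, 127 and 115 with it, a log2 fold change of −2.12 (adjusted p = 3.7e-06). The 2 genes of this overlapping pair moved in opposite directions, with 182 bases of *slx8* free of *apn2*.

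*rfp1* (chromosome I, 2465369 to 2467346, minus strand) had 2, 12 and 27 counts without thiamine and 22, 30 and 43 with it. The groups overlapped through replicate 3 without thiamine. Its log2 fold change was 0.74 (SE 0.64, 95% interval −0.73 to 2.21, adjusted p = 0.328), and without that library it was 1.76 (adjusted p = 0.0438). Without replicate 1 of the same group it was 0.20 (adjusted p = 0.731), and no other left-out library gave a call. *rfp1* was also called higher with library totals (1.39, adjusted p = 0.00911). It lies wholly over *irc6* on the other strand, whose log2 fold change was −0.52 (adjusted p = 0.0827).

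*rad31* (SPAC4C5.04, chromosome I, 1198224 to 1199733, plus strand), the second E1 gene, had 24, 17 and 20 counts without thiamine and 26, 25 and 16 with it. The groups overlapped, and the log2 fold change was −0.29 (SE 0.34, 95% interval −1.07 to 0.49, adjusted p = 0.465). Its span is covered by the antisense transcript SPNCRNA.722, at a log2 fold change of 0.11 (adjusted p = 0.838). A change like that of *uba2* lies inside its interval, and so does no change.

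*fub2* (chromosome II, 4453054 to 4454161, plus strand) had 6, 2 and 0 counts without thiamine and 90, 95 and 164 with it. It passed the filter on low counts (0.226 CPM) through the thiamine libraries alone, so a difference was a condition of its being tested. The summed counts of 349 and 8 gave a ratio of 32.2 after scaling (95% counting interval 16.2 to 75.2), and the fitted log2 fold change was 4.94 (SE 0.57, adjusted p = 6.9e-05). An antisense transcript, SPNCRNA.1695, covers 79.0% of it and was itself too low to be tested.

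*pmt3* is the exception among overlapped genes. Its annotated transcript of 3265 bases is far longer than the 354 coding bases and runs into *tmf1* and *der1* on the other strand, so that 79.5% of its span is overlapped, but the coding part lies in the 706 free bases. *tmf1*, which covers 53.1% of the span, was too low to be tested.

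**Figure D3:**
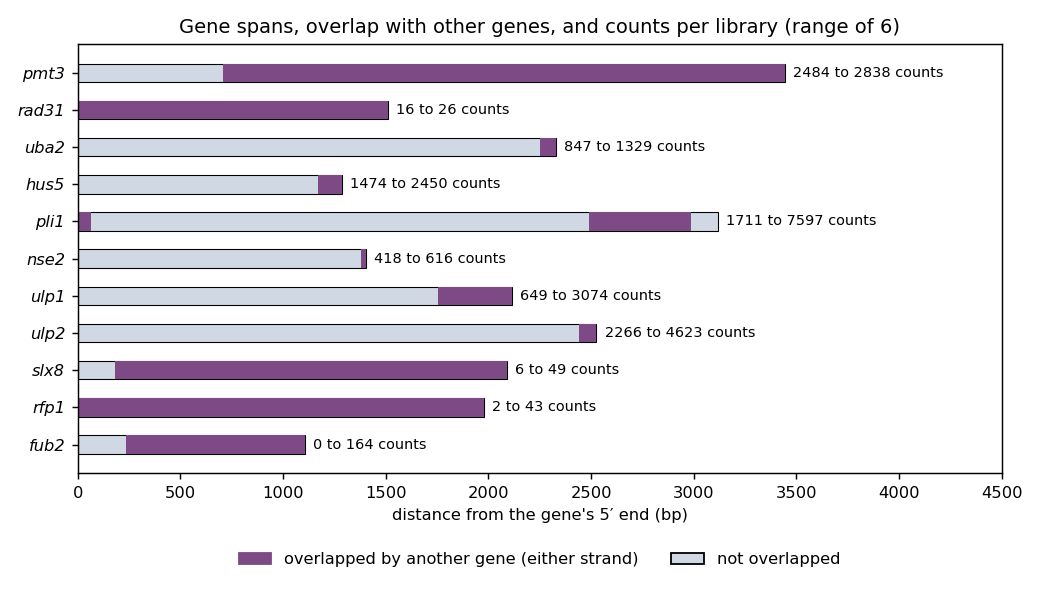
Span of each gene drawn to scale from its 5′ end in bp, with the stretches that another annotated gene overlaps on either strand in purple and the rest in grey; the text at the right gives the lowest and highest count over the 6 libraries. *rad31*, *slx8*, *rfp1* and *fub2* are mostly or wholly overlapped and had at most 164 counts, and *pmt3*, with 706 free bp at its 5′ end, had at least 2484.

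Levels were compared between genes per kb of transcript. Without thiamine the order was *hus5* (53.1 CPM per kb), *ulp2* (32.8), *pmt3* (22.4), *pli1* (15.8), *nse2* (13.5) and *ulp1* (8.76), and no neighbours in it had overlapping ranges over the 3 libraries. With thiamine it was *hus5* (50.7 CPM per kb), *pli1* (43.0), *ulp2* (40.7), *ulp1* (22.7), *pmt3* (16.3) and *nse2* (9.92), where the ranges of *pli1* and *ulp2* overlapped. *ulp1* thus went from the lowest of these 6 genes to a level above *pmt3* and *nse2*, and *pli1* from below *ulp2* to a level like it. The long overlapped end of *pmt3* weighs on its place. Per kb of span outside other genes *pmt3* came first in both groups (104 CPM per kb without and 75.5 with thiamine), and *ulp1* and *nse2* overlapped without thiamine (10.5 and 10.2). The 4 low genes had means of 0.0627 to 2.07 CPM per kb of transcript.

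Ratios of 2 genes within a library do not depend on how libraries are scaled to each other. The 5 pairs were chosen by role, and with 3 libraries against 3 the exact permutation test cannot give a p under 0.1. The log2 ratio of *ulp1* to *ulp2*, in reads per kb, was −1.94, −1.93 and −1.84 without thiamine and −1.06, −0.88 and −0.62 with it. The groups did not overlap, and the mean difference was 1.05 (exact permutation test, two-sided p = 0.1, adjusted p = 0.125 over 5 pairs). In each thiamine library *ulp1* stood closer to *ulp2* than in any library without thiamine, and *ulp2* was the higher of both in all 6 libraries.

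The log2 ratio of *pli1* to *nse2* went from 0.20, 0.03 and 0.48 to 2.05, 1.91 and 2.39. The difference was 1.88 with no overlap (exact permutation test, p = 0.1, adjusted p = 0.125). For the modifier against its E2, *pmt3* to *hus5*, the log2 ratio went from −1.37, −1.23 and −1.13 to −1.50, −1.52 and −1.89. Here the difference was −0.40, again with no overlap (exact permutation test, p = 0.1, adjusted p = 0.125). The negative sign of the ratios rests on the long annotated transcript of *pmt3*. Per kb of span outside other genes *pmt3* stood above *hus5* in both groups.

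The other pairs rest on low counts. *slx8* to *rfp1* differed by 0.49 with overlapping groups (exact permutation test, p = 0.7, adjusted p = 0.7) and by −0.58 without replicate 3 of the libraries without thiamine. *rad31* to *fub2* differed by −5.69 (exact permutation test, p = 0.1, adjusted p = 0.125), a pair planned as the E1 subunits and carried by *fub2*, which is not one. With *uba2* in its place the difference was 0.52 with overlapping groups (exact permutation test, p = 0.2).

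Further ratios, chosen after the values were seen, are given without a test. *pli1* to *ulp1*, the conjugating and the deconjugating gene that rose most among the well-counted ones, had a log2 ratio of 0.85 ± 0.068 without and 0.93 ± 0.144 with thiamine (SD, n = 3), and the groups overlapped. *ulp1* to *pmt3* went from −1.36 to 0.47 and *pli1* to *hus5* from −1.75 to −0.24, both without overlap. The sign of the first rests on the long annotated transcript of *pmt3*. Per kb of span outside other genes *pmt3* stood above *ulp1* in both groups. Its means were 104 CPM per kb without thiamine and 75.5 with it, against 10.5 and 27.4 for *ulp1*. *uba2* to *hus5* went from −1.85 to −2.63, also without overlap.

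**Figure D4:**
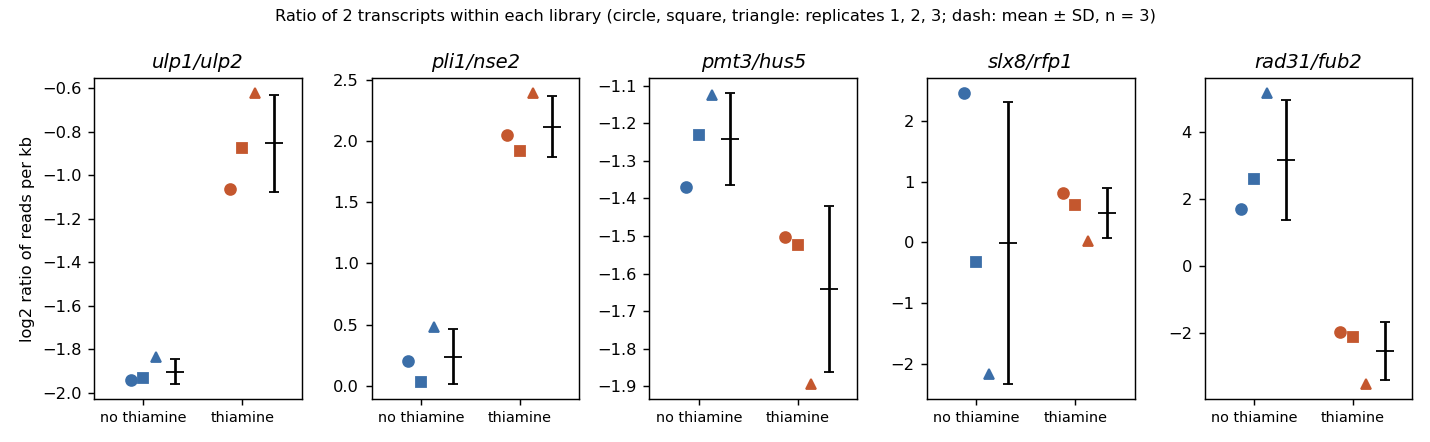
Log2 ratio of reads per kb of the 5 gene pairs in each library, with circles, squares and triangles for replicates 1, 2 and 3 and the mean ± SD of 3 libraries beside them; each panel has its own axis. The groups stand apart for *ulp1/ulp2*, *pli1/nse2*, *pmt3/hus5* and *rad31/fub2*, and overlap for *slx8/rfp1*, where the libraries without thiamine spread from −2.16 to 2.46.

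The calls of the smaller changes depended on the scaling, and those of *ulp1* and *pli1* did not. With library totals in place of TMM the log2 fold changes of *pmt3* and *nse2* were 0.11 and 0.12 (adjusted p = 0.684 and 0.637), that of *hus5* was 0.51 (adjusted p = 0.0284) and that of *uba2* was −0.28 (adjusted p = 0.218). *ulp1* and *pli1* then stood at 1.98 and 2.03. This scaling moved the median of all genes to 0.57, with 50.1% of genes called higher and 10.8% lower. Upper-quartile scaling moved it to −0.31, with 25.2% higher and 47.5% lower, and *hus5* was called lower at −0.37 (adjusted p = 0.0035). Taken relative to the median of all genes, the values of 4 scalings lay close together: 1.38 to 1.41 for *ulp1*, 1.45 to 1.46 for *pli1*, 0.32 to 0.33 for *ulp2*, −0.46 to −0.44 for *pmt3*, −0.45 to −0.43 for *nse2*, and −0.85 to −0.83 for *uba2*. A change of scaling shifts all genes by nearly the same amount, and subtracting the median takes this shift out. The closeness therefore follows from the subtraction and is no separate evidence. The direction of *pmt3* and *nse2* is stated relative to most other genes.

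**Figure D5:**
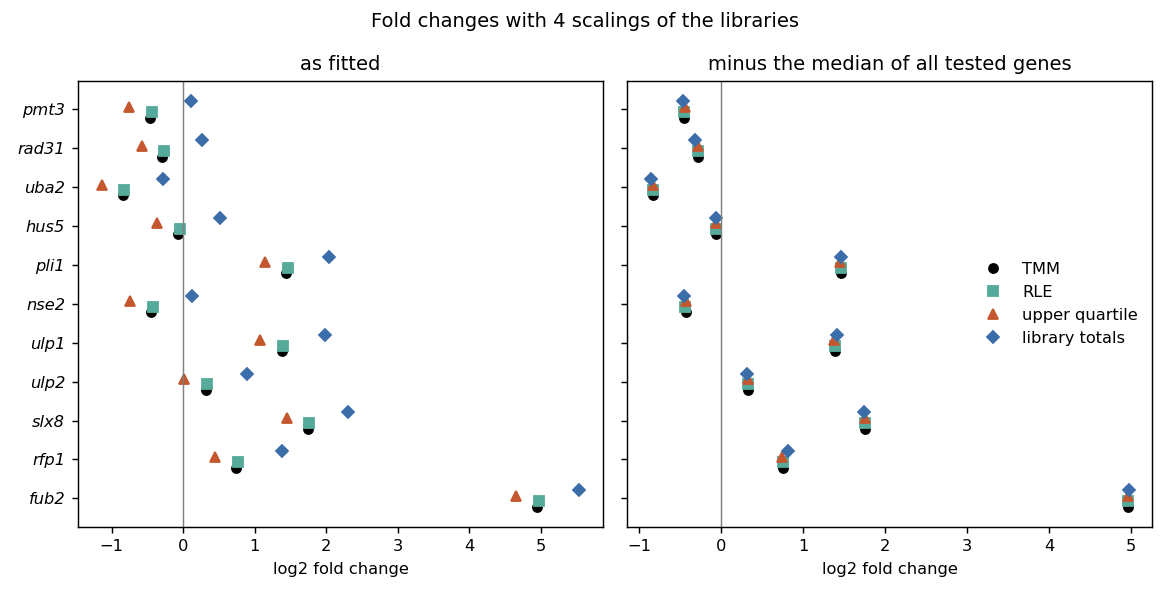
Log2 fold change of each gene, thiamine against no thiamine, with 4 scalings of the libraries, as fitted (left) and after subtracting the median of all tested genes (right). At the left *pmt3*, *nse2*, *rad31* and *hus5* lie on either side of 0 depending on the scaling. At the right the 4 scalings nearly coincide, because the subtraction takes out the shift that a scaling gives to all genes.

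Genes around the pathway, from lists written from general knowledge of this yeast, were counted in the same fit with TMM scaling, where 34.5% of all genes were higher and 35.3% lower. Beside them stand the counts with library totals (50.1% and 10.8% of all genes) and with upper-quartile scaling (25.2% and 47.5%). Of 12 genes of the Smc5-6 complex, its SUMO-like regulators and the factors that work with Slx8, 5 were higher, 4 lower and 3 not called (7 higher and 1 lower with library totals, 3 and 7 with upper-quartile scaling), with a median log2 fold change of −0.02 beside −0.01 over all genes. *smc5*, whose product binds Nse2, had a log2 fold change of 1.77 (adjusted p = 5.27e-07), *nse4* one of −1.08 and *nse1* one of 0.65. *smc6*, wholly overlapped by other genes, is among the 5 higher on 3, 0 and 0 counts without thiamine and 16, 19 and 22 with it, and reached the filter in the thiamine libraries alone. The genes for the partners of Nse2 therefore changed in both directions, and with library totals *nse4* was still lower (−0.52, adjusted p = 0.0188).

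Of 6 nuclear pore genes tied to the place of Ulp1, 4 were higher, 1 lower and *nup211* not called (4 higher and 0 lower with library totals, 3 and 2 with upper-quartile scaling), beside 34.5% and 35.3% of all genes. The median was 0.44, beside −0.01 over all genes. *nup124* was at 116, 117 and 110 CPM without thiamine and at 376, 396 and 435 CPM with it, and its log2 fold change was 1.82. *alm1*, for the other large basket protein related to Nup211, had a log2 fold change of 0.98, and *nup132*, whose product holds Ulp1 at the pore, one of 0.54. *nup61* was the one that fell, by 0.49 on the log2 scale, but stood at 0.10 with library totals (adjusted p = 0.728).

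Among 9 genes for reported SUMO targets, 4 were higher, 3 lower and 2 not called, with a median of −0.07 (5 higher and 0 lower with library totals, 2 and 4 with upper-quartile scaling). Over all genes 34.5% were higher and 35.3% lower. *pcn1*, for the sliding clamp PCNA, had a log2 fold change of −0.82, the telomere gene *tpz1* one of −0.74 and the topoisomerase gene *top1* one of −0.72, whereas the RecQ helicase gene *rqh1* was at 0.78. Of 8 genes of NEDD8, a modifier with its own E1 and E2, 7 were found under their listed name and 6 tested. Older names were not searched for these lists, so *ula1* is left out. Of the 6 tested, 2 were higher, 3 lower and 1 not called, with a median of −0.11. With library totals 3 were higher and 1 lower, and with upper-quartile scaling 1 and 3. The deneddylase gene *nep2* had a log2 fold change of 2.01, *csn5*, for the catalytic subunit of the signalosome, one of −1.05, and the E1 and E2 genes *uba3* and *ubc12* ones of −0.43 and −0.39, which with library totals were 0.13 and 0.17 and not called.

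The 5 genes whose levels over the 6 libraries lay closest to those of *ulp1*, of 5433 compared, were SPCC4F11.03c, *scr1*, *dhp1*, *gad8* and *ins1*. Likeness was the root mean square distance of mean-centred log2 CPM, which was 0.0358, 0.0377, 0.0420, 0.0465 and 0.0465 for these genes, beside a median of 0.749 over all. All 5 were highest in thiamine replicate 3, as *ulp1* was. The small distances and this shared peak follow from picking the genes nearest to *ulp1* over the same libraries.

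The sequence before *ulp1* was read as well, since its transcript rose together with that of *pli1*. The 250 bases before the RefSeq start of *ulp1* (chromosome II, 2366845 to 2367094, plus strand, ASM294v3) overlap no other deposited gene, and their last 16 bases lie within the deposited *ulp1* span. They are shown in lower case, since no searched motif was found to mark.

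ulp1 upstream: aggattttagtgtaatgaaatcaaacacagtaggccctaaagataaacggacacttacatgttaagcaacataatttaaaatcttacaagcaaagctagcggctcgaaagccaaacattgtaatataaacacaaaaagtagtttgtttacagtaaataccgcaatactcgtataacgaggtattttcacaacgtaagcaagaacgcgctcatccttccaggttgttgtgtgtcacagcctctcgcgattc

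The motifs searched on both strands were TGACGT (the core of the stress-response CRE element), ACGCGT (the MCB element of genes expressed at the start of S phase), CAGTCACA (the HomolD box) and CCAGCC. They occur in 5.52%, 2.64%, 2.62% and 2.86% of the 5112 windows of this length. None of the windows before *ulp1*, *pli1*, the other 8 genes or *uba2* holds any of them, which says only that these letters are not in these windows.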

How the data were processed

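The authors deposited read counts per gene for 6 libraries (unit: counts, not normalized), made with a strand-specific poly(A) library kit. The submitters' processing notes name STAR and DESeq2. The counting program, its use of strand and the genome build are not given in the sources used here. A deposited table also holds gene positions and transcript lengths in bp, which were used, and the authors' own comparison of the groups, which was not. Positions were set beside ASM294v3 and overlapped for 99.984% of 6233 genes. The deposited end of chromosome I equals its length there (5579133), and sequences come from that assembly with RefSeq annotation.

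Counts were tested with edgeR 4.0.16 (R 4.3.3) by the quasi-likelihood F test with robust dispersion, TMM scaling and the default filter, leaving 5434 genes. Adjustment was by Benjamini and Hochberg over all genes tested, and a gene was called at an adjusted p under 0.05. CPM are TMM-scaled. Ratios used a pseudocount of 0.5 counts and an exact permutation test. DESeq2 1.42.0 and other scalings, filters and left-out libraries were alternatives. Replicates are separate cultures, and no pair of libraries held the same counts. The steps were tested on simulated data.

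All 10 genes are named. From the other lists at most 4 called genes each were named, by the size of the log2 fold change, with *nup211*, *ura4*, *nmt1* and genes that overlap a named gene. The genes and lists were chosen with earlier results of these data known. Genes near *ulp1* and *pli1* were added after the values were seen. Intervals of counts cover counting error only.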

Additional observations from a re-analysis of the deposited data

How the results depend on the processing

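The log2 fold change of *ulp1* stayed called under every alternative run, from 1.08 to 1.98, with 1.22 to 1.44 when 1 library was left out. The number of the 10 genes called higher was 5, and was 3 with 10 counts required in every library, which leaves *fub2*, *slx8* and *rfp1* untested, 7 with library totals, 4 with upper-quartile scaling or trends removed, and 5 to 6 with 1 library left out. The number called lower was 2, and was 0 with library totals and 3 with upper-quartile scaling. It was 1 with trends of length and GC content removed, and 2 with the replicate block as well. With 1 library left out it was 1 to 2 (1 without replicate 2 of the libraries without thiamine). With library totals the log2 fold change was 0.11 for *pmt3*, 0.12 for *nse2*, 0.26 for *rad31* and 0.51 for *hus5*. That of *hus5* was 0.10 with the trends removed and 0.10 with the replicate block as well. The cause was not tested. Same-numbered libraries deviated from their group means with correlations of −0.00486, 0.0858 and −0.0277 over genes, so the numbers were not taken as pairs. With the replicate block that of *ulp1* was 1.36 and the counts were 5 and 2, and the block alone changed no call. The log2 ratio of *slx8* to *rfp1* ran from −0.58 to 1.73 with 1 library left out, −0.58 without replicate 3 of the libraries without thiamine, and that of *rad31* to *fub2* was 0.52 with *uba2* in place of *fub2*. Without a pseudocount *rad31* to *fub2* gave no value. Low counts limit *rad31*, *slx8*, *rfp1* and *fub2*, at 0 to 164 counts a library.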

Other observations

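Genes within 20 kb of *ulp1* were counted after its value was seen. Of 19 tested, 7 were higher and 7 lower, so 36.8% were higher, beside 34.5% of all genes. The largest log2 fold changes upward were 3.31 for *bgs1*, 2.60 for *art1*, 2.59 for *mbx1* and 2.10 for *tbf1*. Downward they were −1.04 for *sec6102*, −1.03 for *tom5*, −0.84 for *cwf14* and −0.80 for *abz2*. *pdc2*, whose 3′ part overlaps that of *ulp1* by 359 bases on the other strand, was at −0.78. Of 22 genes tested within 20 kb of *pli1*, 8 were higher and 9 lower, so 36.4% were higher. The genes around *ulp1* and *pli1* were thus called higher about as often as all genes.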
